A study of Mus musculus with 6 samples.

Results

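The receptors, gatekeepers and transcription factors through which cells read Hedgehog signals were followed from mature adipocytes (AC) to dedifferentiated fat (DFAT) cells. They were 9 genes (Ptch1, Hhip, Gas1, Boc, Smo, Sufu, Gli1, Gli2 and Gli3), and their 25 probe sets were all those among 45037 whose annotation gives one gene symbol equal to one of these names. The values came from 6 Affymetrix Mouse Genome arrays, 3 hybridized with RNA of AC and 3 with RNA of DFAT cells. AC were primary fat cells isolated from mouse fat tissue. DFAT cells were the proliferating cells that such adipocytes give rise to when cultured at the ceiling of a flask, and they were harvested while semiconfluent and had not been transduced. The methods call DFAT a line, established from GFP transgenic mice, an origin that is not stated for AC, and the spread among arrays of 1 line would say nothing of further lines. Age, sex, strain and fat depot were not found stated. Biological replicates are mentioned in the study where it describes its signal calls. Those calls cover AC and DFAT cells as well as hepatocytes (HC) and resident liver stem cells (RLSC). Whether the AC or DFAT replicates stem from different animals or cultures is not said there. A p-value here thus reflects array-to-array spread, which may be technical.

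Hedgehog ligands are lipid-modified secreted proteins that bind the receptor Ptch1. Without ligand, Ptch1 holds back Smo, a membrane protein of the G protein-coupled receptor type, and once released Smo enters the primary cilium and passes the signal to the zinc finger factors Gli2 and Gli3, which Sufu otherwise retains. Gli2 acts mainly as an activator, Gli3 mainly as a repressor after it is cut, and Gli1, Ptch1 and Hhip are themselves switched on by the pathway and serve as its usual transcriptional readouts. In fat tissue, Hedgehog signals are known for holding back the differentiation of precursors into adipocytes.

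In DFAT cells the RNA of the ligand co-receptor Gas1, of Smo and of the factors Gli2 and Gli3 was higher than in AC, that of the co-receptor Boc was lower, and the readouts Ptch1, Gli1 and Hhip showed no change that was both past the test and above background level. The difference of Gli3 was 2.85 on the log2 scale, from AC values at background level, and that of Gas1, above background level on every array, was 1.98 and 2.37 by its 2 probe sets. Each gene was represented by its brightest probe set, that with the highest average of the 6 arrays. In this way 5 of the 9 genes were higher (Gas1, Smo, Gli1, Gli2 and Gli3), 1 was lower (Boc) and 3 did not pass the test (Ptch1, Hhip and Sufu), at an adjusted p under 0.05 from limma. Over all 18193 genes the same test called 46.4%, with 22.6% higher and 23.8% lower, and the median difference was -0.10 where that of the 9 genes was 0.59. Of the 25 probe sets, 9 were higher, 3 were lower and 13 did not pass, or 48.0% called, against 38.4% over all probe sets (20.3% higher and 18.1% lower). The groups did not overlap in 14 of the 25, or 56.0%, beside 51.9% of all probe sets, and in 7 of the 9 genes, beside 60.0% of all genes.

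**Figure D1:**
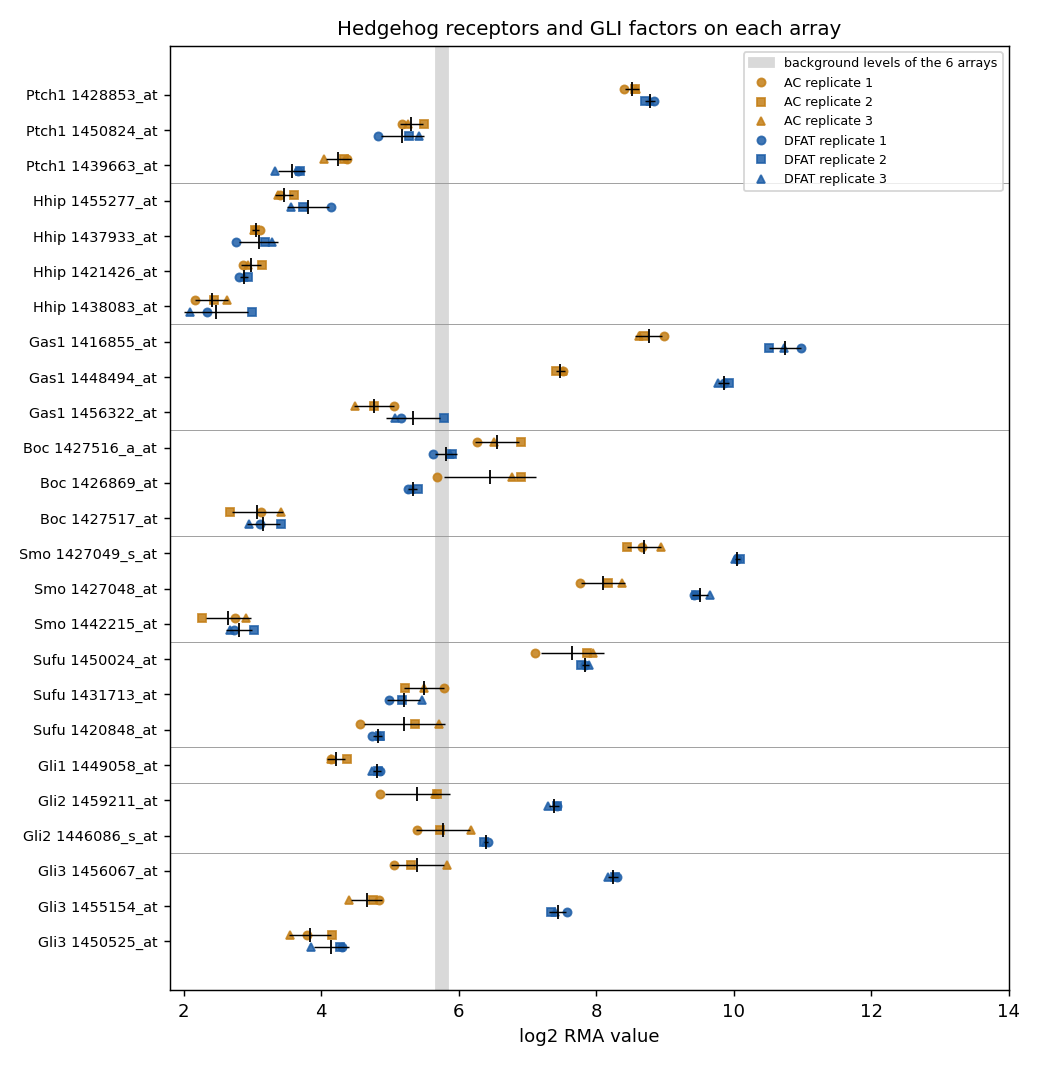
Log2 RMA values (x axis) of the 25 probe sets of the 9 genes (y axis) on the 3 AC arrays (orange) and the 3 DFAT arrays (blue), with symbols for the replicates, black marks for group means with their SD, and a grey band for the background levels of the 6 arrays, 5.67 to 5.84. The DFAT arrays lie to the right of every AC array for 3 probe sets of Gas1, by a narrow margin in 1456322_at, and for 2 each of Smo, Gli2 and Gli3. Gli1 and the 4 probe sets of Hhip stay under the band on all arrays.

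The deposited values are log2 intensities after RMA, so a difference of 1 is a doubling of signal, and differences are DFAT minus AC throughout. A level of one probe set is not comparable with that of another. As a gauge of unspecific signal, the background level of an array was taken as the 95th percentile of 137 probe sets for genes of lens, retina, sense organs and sperm, which came to 5.75, 5.67 and 5.84 for AC against 5.73, 5.77 and 5.69 for DFAT cells. It is not a detection call. Of the 25 probe sets, 14 were at or under it on all AC arrays, 13 on all DFAT arrays and 11 on all 6. The background genes include Odf2, a centrosome gene of most cells, and without it 13 and 13 probe sets were at background level. In these bulk samples, fewer cells of a type and less RNA per cell cannot be told apart.

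The adipocyte identity of AC was borne out by its markers, but the AC arrays also carried those of other cells. Adiponectin (Adipoq), leptin (Lep) and Cidec were between 11.86 and 14.44 on the AC arrays and between 3.42 and 4.30 on the DFAT arrays, and all 26 measured white adipocyte markers were lower in DFAT cells. All 25 measured cell cycle genes were higher. The mean over 20 endothelial markers was 7.61 to 9.40 in AC and 4.48 on each DFAT array. That of 18 epithelial and mammary markers, milk protein genes among them, was 8.23 to 8.91 and 4.60 to 4.70. That of 20 macrophage and leukocyte markers was 6.16 to 7.86 and 4.40 to 4.45. For 14 markers of pericytes and smooth muscle it was 7.88 to 8.26 and 7.02 to 7.09, and for 17 of stromal progenitors and fibroblasts 8.92 to 9.59 and 7.94 to 7.96. These last 2 lists were split, with 5 genes higher and 9 lower in each. Higher were the contractile genes Acta2, Tagln, Cnn1, Actg2 and Lmod1, by 2.17, 2.94, 3.96, 3.24 and 2.14, and Pdgfra, Pdgfrb, Thy1, Col1a1 and Col1a2, by 2.02, 3.61, 4.94, 3.62 and 2.44, while Rgs5, Dcn and Lum fell by 7.03, 8.14 and 6.41. Of the other defining markers, Pecam1, Cdh5, Epcam, Krt8, Rgs5 and Myh11 were above background level on every AC array and under it on every DFAT array. Adgre1 and Pi16 were above it on 2 AC arrays and on 0 DFAT arrays. Cspg4, Sox10 and Csf1r were above it on every AC array and on 1, 2 and 3 DFAT arrays, and were lower in DFAT cells. Dpp4, Msln and Upk3b were under it on all 6, and Pdgfra was above it on all 6 and higher in DFAT cells. For 8 mesothelial markers the mean was 4.65 to 4.74 and 4.38 to 4.43, and for 10 of Schwann cells 5.64 to 5.81 and 4.28 to 4.51. The part of these other cells in the results was not tested. AC replicate 1 stood apart, with a correlation of 0.969 to 0.971 to both remaining AC arrays, whose own correlation was 0.991, a higher endothelial mean (9.40 against 7.69 and 7.61) and a lower macrophage mean (6.16 against 7.77 and 7.86).

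Because 4 of the genes moved upward together above background level, the stretches just before their transcription starts are shown, 250 bases each, as RefSeq places them on GRCm38.p6. Capitals mark the GC box, a binding sequence of Sp1-type factors, searched as GGGCGG on both strands.
Gli3, chr13:15463473-15463722, + strand: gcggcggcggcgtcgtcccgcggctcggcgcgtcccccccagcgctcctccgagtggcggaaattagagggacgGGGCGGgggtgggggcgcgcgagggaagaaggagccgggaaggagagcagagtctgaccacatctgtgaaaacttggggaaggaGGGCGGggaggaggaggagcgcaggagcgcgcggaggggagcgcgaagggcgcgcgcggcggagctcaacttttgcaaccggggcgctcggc
Gli2, chr1:119053620-119053869, - strand: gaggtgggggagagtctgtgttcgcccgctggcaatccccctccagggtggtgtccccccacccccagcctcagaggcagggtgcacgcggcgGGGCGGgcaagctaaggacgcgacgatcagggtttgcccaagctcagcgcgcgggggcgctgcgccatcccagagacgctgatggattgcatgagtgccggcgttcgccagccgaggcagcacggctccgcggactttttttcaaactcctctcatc
Gas1, chr13:60177536-60177785, - strand: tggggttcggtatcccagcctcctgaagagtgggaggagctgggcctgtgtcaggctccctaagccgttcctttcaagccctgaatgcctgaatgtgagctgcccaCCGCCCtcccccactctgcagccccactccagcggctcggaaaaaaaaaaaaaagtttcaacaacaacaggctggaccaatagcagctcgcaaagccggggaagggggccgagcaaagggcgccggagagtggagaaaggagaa
Smo, chr6:29735247-29735496, + strand: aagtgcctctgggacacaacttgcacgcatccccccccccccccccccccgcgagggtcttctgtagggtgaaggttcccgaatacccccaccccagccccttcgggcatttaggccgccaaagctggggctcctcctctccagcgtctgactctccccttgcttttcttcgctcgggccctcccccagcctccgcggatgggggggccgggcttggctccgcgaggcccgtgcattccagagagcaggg
The window of Gli3 held 2 GC boxes, those of Gli2 and Gas1 held 1 each and that of Smo held none, where 32.7% of 32851 such windows of the genome held at least 1. Of the genes that did not pass, Hhip had 2 and Ptch1 and Sufu had 1 each, so GC boxes did not set apart the genes that rose either. All 4 windows shown were richer in CpG than the median window, which had 6, with 34 in Gli3, 22 in Gli2, 15 in Smo and 10 in Gas1. So were the windows of Ptch1, Hhip and Sufu, with 41, 28 and 8, so that CpG number did not set apart the genes that rose. The consensus site of GLI factors, GACCACCCA on either strand, was in 0 of the 7 windows and in 0.225% of all windows. These are descriptions of short windows, and sites elsewhere in the genes were not searched. Gli1 and Boc were not among the windows used here.

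Ptch1, the ligand receptor, was measured by 3 probe sets, of which 1 (1428853_at) was above background level. Its values were 8.41, 8.57 and 8.58 in AC against 8.84, 8.71 and 8.78 in DFAT cells. The groups did not overlap, but the difference of Ptch1, 0.26 (95% confidence interval -0.04 to 0.55), did not pass the test (adjusted p = 0.154 from limma). It ranged from -0.21 with the arrays centred on reference genes to 0.72 with hybridization controls, and it passed when low values of all probe sets were set to the background level (adjusted p = 0.0395 from limma). The probe set 1450824_at of Ptch1 had 5.17, 5.50 and 5.26 in AC against 4.83, 5.28 and 5.42 in DFAT cells, with overlapping groups and a difference of -0.14. The probe set 1439663_at passed the test as lower, by -0.68 (adjusted p = 0.0114 from limma), but all of its values, 4.04 to 4.37 in AC and 3.33 to 3.70 in DFAT cells, lay under background level, and it did not pass without DFAT replicate 3 (-0.57, adjusted p = 0.0537 from limma) or centred on the hybridization controls (-0.22, adjusted p = 0.504 from limma).

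Hhip, a membrane-bound decoy that captures Hedgehog ligands, was at background level throughout. Its 4 probe sets lay between 2.09 and 4.14 on the 6 arrays, far under the background level of 5.67 and more. Their differences were 0.35, 0.03, -0.10 and 0.06, none passed the test, and the groups of all 4 overlapped. These arrays thus give no measured level of Hhip in either group.

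Gas1, a GPI-anchored co-receptor that helps ligands bind Ptch1, rose by the 2 of its 3 probe sets that were above background level on every array. The probe set 1416855_at read 8.98, 8.69 and 8.62 in AC against 10.98, 10.51 and 10.73 in DFAT cells. The other, 1448494_at, read 7.52, 7.42 and 7.51 in AC against 9.86, 9.93 and 9.77 in DFAT cells. Every DFAT array was thus above every AC array by both probe sets, and the spread within a group was small beside that gap. The mean of Gas1 went from 8.76 ± 0.19 (SD, n = 3) to 10.74 ± 0.23 (SD, n = 3) for the former, a 3.93-fold increase (adjusted p = 5.36e-05 from limma). For the latter it went from 7.48 ± 0.06 (SD, n = 3) to 9.85 ± 0.08 (SD, n = 3), a 5.16-fold increase (adjusted p = 3.16e-06 from limma). The difference of Gas1 lay between 1.51 and 2.83 for these probe sets under 4 other scalings of the arrays. The last probe set, 1456322_at, was above background level on DFAT replicate 2 alone, at 5.78, and its groups did not overlap, by a narrow margin. Its difference of 0.56 did not pass the test (adjusted p = 0.0912 from limma). The difference passed without AC replicate 1, at 0.71 (adjusted p = 0.0328 from limma). It also passed after quantile normalization again (0.69) and centred on the array median (0.69) or the hybridization controls (1.03). With the reference genes it was 0.10 and did not pass, and with low values set to the background level it was -0.02.

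Boc, a co-receptor of the immunoglobulin superfamily, was lower in DFAT cells, and its calls were less firm than those of Gas1. The probe set 1427516_a_at read 6.27, 6.91 and 6.51 in AC against 5.63, 5.91 and 5.88 in DFAT cells, where it was just above background level on 2 of 3 arrays. The probe set 1426869_at read 5.68, 6.91 and 6.78 in AC against 5.26, 5.41 and 5.31 in DFAT cells. In both, the groups did not overlap and AC replicate 1 was the lowest AC array. The differences of Boc were -0.76 (95% confidence interval -1.20 to -0.32, adjusted p = 0.0145 from limma) and -1.13 (95% confidence interval -1.83 to -0.43, adjusted p = 0.0195 from limma). Without AC replicate 1 they were -0.90 and -1.52 (adjusted p = 0.00243 and 2.45e-05 from limma). Without DFAT replicate 1 neither passed (-0.67 and -1.10, adjusted p = 0.065 and 0.0706 from limma), and the latter was also lost without AC replicate 2 or 3 (-0.90 and -0.97) and without DFAT replicate 2 or 3 (-1.17 and -1.12). Centred on the hybridization controls, neither passed, at -0.29 and -0.67 (adjusted p = 0.464 and 0.221 from limma). The third probe set, 1427517_at, was under background level on all arrays, with a difference of 0.09. The markers of stromal progenitors and fibroblasts had a lower mean on AC replicate 1 as well, 8.92 against 9.59 and 9.54, and their part in the values of Boc was not tested.

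Cdon, the co-receptor related to Boc, was above background level on all arrays, at 7.96, 7.58 and 7.88 in AC against 7.98, 7.86 and 8.07 in DFAT cells. The groups overlapped, and the difference of Cdon, 0.16, did not pass the test (adjusted p = 0.44 from limma). Of the 3 co-receptors, 1 was thus higher, 1 was lower and 1 did not pass.

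Smo, which carries the signal across the membrane, rose by the 2 of its 3 probe sets that were above background level. The probe set 1427049_s_at read 8.66, 8.45 and 8.94 in AC against 10.05, 10.09 and 10.01 in DFAT cells, and 1427048_at read 7.76, 8.17 and 8.38 in AC against 9.42, 9.45 and 9.65 in DFAT cells. In both, all DFAT arrays were above all AC arrays. The differences of Smo were 1.36 (SE 0.16) and 1.40 (SE 0.18), increases of 2.57-fold and 2.64-fold, with adjusted p = 0.000253 and 0.000514 from limma. Both probe sets were designed from the same sequence record, so they are not independent, and the _s_at suffix marks one that can also match other transcripts. Across the other scalings the differences of Smo lay between 0.90 and 1.86, and the smallest were those with the arrays centred on reference genes. The third probe set, 1442215_at, was at 2.27 to 3.02 on the 6 arrays, under background level, with a difference of 0.16.

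Sufu, the cytoplasmic protein that binds and restrains GLI factors, did not pass the test by any of its 3 probe sets. The one above background level on all arrays, 1450024_at, read 7.11, 7.87 and 7.95 in AC against 7.84, 7.78 and 7.89 in DFAT cells. AC replicate 1 was alone in lying below the DFAT arrays, and the other AC values fell within or above their range. The difference of Sufu was 0.19 (95% confidence interval -0.33 to 0.71, adjusted p = 0.554 from limma) and -0.08 without AC replicate 1. Another probe set of Sufu, 1420848_at, was under background level on all 6 arrays, at 4.57, 5.36 and 5.71 in AC against 4.74, 4.86 and 4.86 in DFAT cells, and passed as lower without AC replicate 1 (-0.71, adjusted p = 0.0038 from limma). The last, 1431713_at, was above background level on AC replicate 1 alone, with a difference of -0.30.

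**Figure D2:**
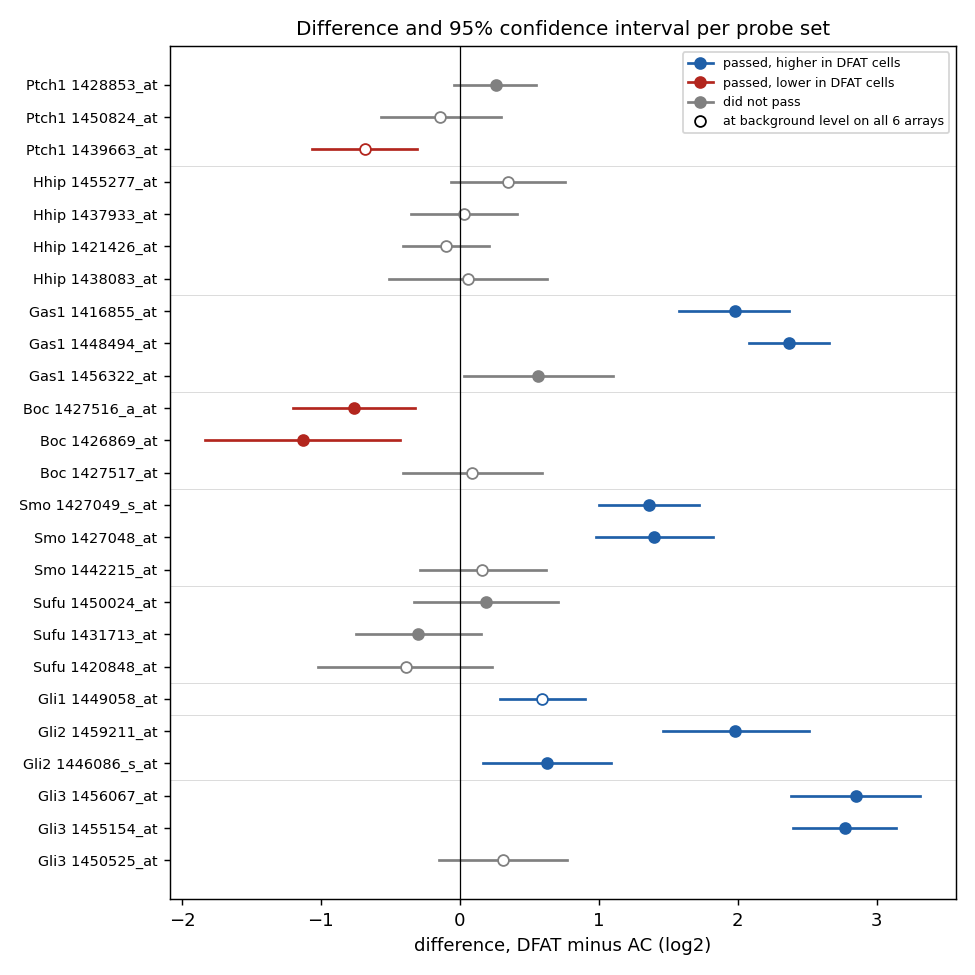
Differences between DFAT cells and AC on the log2 scale (x axis) with 95% confidence intervals from limma for each of the 25 probe sets (y axis), in blue where higher and in red where lower at an adjusted p under 0.05, and with open symbols where all 6 arrays were at background level. The intervals of Gas1 (2 probe sets), Smo (2), Gli2 (2) and Gli3 (2) lie above 0 with filled symbols, those of Boc (2) below 0, and the calls of Gli1 and of the lowest Ptch1 probe set are open. Centred on reference genes, the call of the Gli2 probe set 1446086_s_at was lost, and centred on hybridization controls, those of Boc were.

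Gli1, the factor whose own RNA is a sensitive readout of the pathway, was called higher but at values under background level. Its only probe set, 1449058_at, read 4.14, 4.37 and 4.14 in AC against 4.86, 4.83 and 4.74 in DFAT cells. All DFAT arrays were above all AC arrays, and all 6 were under the 95th percentile and also under the 90th percentile of the background genes, which was 5.29 to 5.50. The difference of Gli1 was 0.59 (95% confidence interval 0.29 to 0.90, adjusted p = 0.0083 from limma). The call was lost with the arrays centred on reference genes, at 0.13 (adjusted p = 0.392 from limma). It was kept after quantile normalization again (0.73) and centred on the array median (0.72) or the hybridization controls (1.05). Without each array in turn it was also kept, at 0.55 to 0.67 (largest adjusted p = 0.0419 from limma). Since all values lay under background level, the call does not measure a rise above background.

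Gli2, the main activator, rose from values around background level. The probe set 1459211_at read 4.86, 5.68 and 5.66 in AC, where 1 of 3 arrays was above background level by a narrow margin, and 7.43, 7.43 and 7.30 in DFAT cells. Every DFAT array was thus far above every AC array. The mean of Gli2 went from 5.40 ± 0.47 (SD, n = 3) to 7.39 ± 0.07 (SD, n = 3), a difference of 1.98 (95% confidence interval 1.46 to 2.51, adjusted p = 0.000251 from limma). With values under the background level set to it the difference was 1.63, and without AC replicate 1, the lowest, it was 1.72. The other probe set of Gli2, 1446086_s_at, comes from the same sequence record and read 5.40, 5.73 and 6.18 in AC against 6.43, 6.37 and 6.40 in DFAT cells. Its difference was smaller, 0.63 (95% confidence interval 0.17 to 1.09, adjusted p = 0.0391 from limma). That call was lost without AC replicate 2 (0.61, adjusted p = 0.0923 from limma) and without DFAT replicate 1, 2 or 3 (0.61, 0.65 and 0.63), and centred on the reference genes it was 0.17 (adjusted p = 0.445 from limma).

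Gli3, the factor that yields the main repressor of the pathway, went from background level in AC to well above it in DFAT cells by 2 of its 3 probe sets. The probe set 1456067_at read 5.06, 5.31 and 5.83 in AC against 8.30, 8.27 and 8.17 in DFAT cells, and 1455154_at read 4.84, 4.75 and 4.40 in AC against 7.57, 7.34 and 7.40 in DFAT cells. No AC value was above the background level of its array. By the former, AC replicate 3, at 5.83, was just under its level of 5.84. It exceeded the 90th percentile of the background genes, 5.50, and the level found without Odf2, 5.77. The differences of Gli3 were 2.85 (95% confidence interval 2.38 to 3.31) and 2.77 (95% confidence interval 2.40 to 3.14), with adjusted p = 1.69e-05 and 5.29e-06 from limma. Since AC was at background level, their sizes are not exact, and with low values set to the background level they were 2.49 and 1.68. Across the other scalings both stayed between 2.31 and 3.31, and without each array in turn between 2.64 and 3.06. The third probe set, 1450525_at, was under background level on all arrays, at 3.55 to 4.16 in AC and 3.86 to 4.31 in DFAT cells, and did not pass the test, with a difference of 0.31.

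The genes with the most similar profile over the 6 arrays were sought among all genes with a probe set of their own, the 9 genes left out. The measure was the root mean square difference of their values, each centred on its own mean. Nearest to Gli3 were the filamin gene Flnc at 0.0648, Topbp1 at 0.0864 and Trnp1 at 0.099 log2 units. Nearest to Gli2 were Ipo5 at 0.0625, Serpinb6a at 0.0632 and Adh7 at 0.0652, and nearest to Smo were Zfp90 at 0.0531, Lef1 at 0.0603 and Qtrt1 at 0.0604. For Gas1 they were Ptn, Tmem74 and Ctla2a at 0.0843, 0.0954 and 0.0971, for Boc Fbln5, P3h2 and Rtl6 at 0.0651, 0.0677 and 0.0774, and for Gli1 Fkbp1a, Tnks2 and Rev3l at 0.0321, 0.0368 and 0.0392. With 2 groups, such likeness rests mostly on the size of the difference between them, and it is given as a description.

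The direction of a difference depends on how the arrays are brought to one scale. As deposited, 52.9% of the calls over all probe sets were higher in DFAT cells and the median difference was -0.06. Centred on the array median the share was 63.0% and the median 0.07, centred on 14 reference genes they were 18.5% and -0.52, and centred on 18 hybridization controls 78.5% and 0.40. Of the 25 probe sets of the 9 genes, 10 were then higher and 3 lower, 7 higher and 8 lower, and 11 higher and 0 lower, in the same order, with 0 lower also at an unadjusted p under 0.05 in the last. Gas1, Smo, Gli2 and Gli3 were higher and passed the test under each of these scalings by their representing probe sets, by at least 0.90, where the median of all probe sets moved between -0.52 and 0.40. Ptch1, Hhip and Sufu turned from above to below 0 with the reference genes, and Boc stayed below 0 under all. The 14 reference genes were themselves not steady between the groups as deposited. Of them 9 were higher, 2 were lower and 3 did not pass, with a median difference of 0.53. That is 78.6% called, beside 46.4% of all genes.

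**Figure D3:**
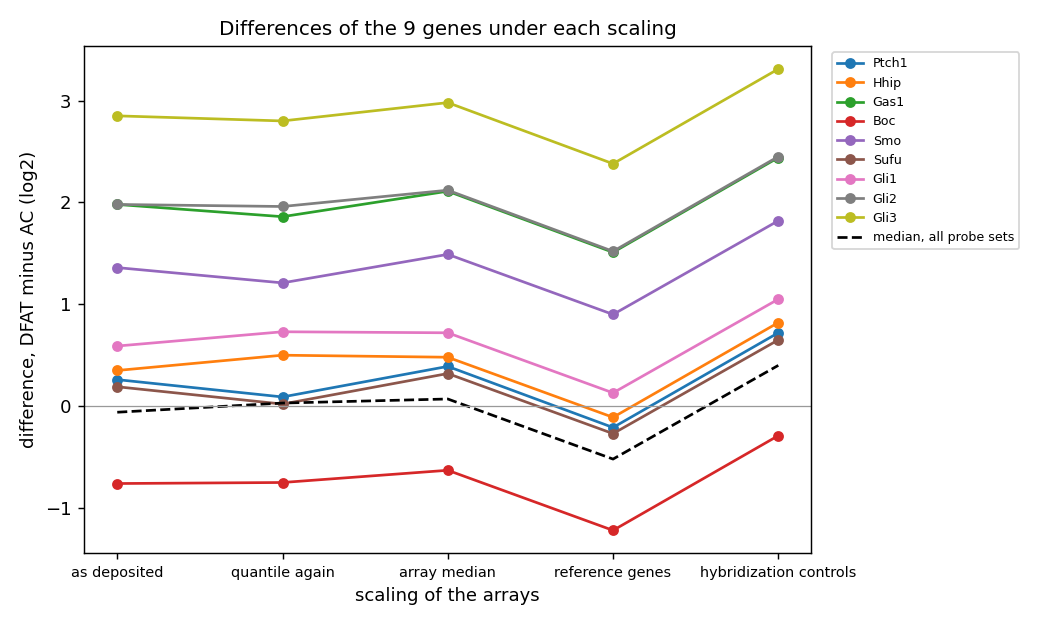
Differences between DFAT cells and AC on the log2 scale (y axis) for the probe set that represents each of the 9 genes (coloured lines), with the values as deposited and after 4 other scalings of the arrays (x axis), and the median over all probe sets (dashed). Gli3, Gli2, Gas1 and Smo lie above 0.90 under every scaling, Boc lies below 0 under every scaling, and Ptch1, Hhip and Sufu cross 0 with the reference genes.

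Shh, Ihh and Dhh, the 3 mammalian ligand genes, were under background level on all 6 arrays, at 4.15 to 4.52, 3.71 to 4.09 and 3.39 to 5.13. Their differences were 0.13, -0.01 and -0.43, and none passed the test. Disp1, the transporter that releases lipid-modified ligand from the producing cell, was at 5.73, 5.46 and 5.20 in AC, under background level, and at 8.04, 7.96 and 8.24 in DFAT cells, a difference of 2.61 (adjusted p = 1.08e-05 from limma). Hhat, which attaches palmitate to the ligands, passed the test as higher by 1.01 but was under background level on all arrays. Of the 10 ligand and release genes, 2 were higher, none was lower and 8 did not pass, with a median of -0.04. That is 20% called, beside 46.4% of all genes (22.6% higher and 23.8% lower). The remaining genes were the Dispatched relatives Disp2 (-0.01) and Disp3 (-0.14) and the secreted ligand carriers Scube1 (-0.09), Scube2 (-0.07) and Scube3 (-0.53), of which Scube1 alone was above background level, at 5.77 to 6.02.

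Of 7 other measured proteins that bind Hedgehog ligands, Cdon included, 3 were lower, none was higher and 4 did not pass, with a median of -0.27. The 42.9% called lie near the 46.4% of all genes (22.6% higher and 23.8% lower). Vtn, the matrix and plasma protein vitronectin, fell from 7.80, 7.31 and 7.31 in AC to 3.80, 3.83 and 4.25 in DFAT cells (adjusted p = 4.47e-06 from limma). The glypican Gpc3 and the Patched-related Ptchd1 fell by 0.90 and 0.55 from around background level, each above it on 1 AC array. The count of lower genes was 1 after quantile normalization again, without AC replicate 2, without DFAT replicate 2 and without DFAT replicate 3. The glypican Gpc4 was well above background level and did not pass, with a difference of 0.14, and Gpc5 (-0.14) and the endocytic receptor Lrp2 (-0.27) were under it on all arrays.

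Among 35 measured regulators of Smo and the GLI factors, 9 were higher, 5 were lower and 21 did not pass, that is 40.0% called, beside 46.4% of all genes. Among the genes that rose was Gpr161, a ciliary receptor that keeps the pathway off through cyclic AMP, with 3.52, 4.18 and 4.55 in AC against 7.67, 7.53 and 7.66 in DFAT cells. Its difference was 3.53 (adjusted p = 1.59e-05 from limma), but AC lay under background level, so its size is not exact and it cannot be ranked. The scaffold gene Dlg5 rose by 3.30, Evc, a ciliary partner of Smo, by 1.71, and Tulp3, which brings Gpr161 into the cilium, by 1.70. The largest decreases were in Prkar2b, a regulatory subunit of protein kinase A and abundant in adipocytes, by 1.68, the arrestin Arrb1 by 1.25, the adenylyl cyclase Adcy5 by 1.21 and the catalytic subunit Prkaca by 0.63. Other cyclic AMP genes of the list did otherwise. Prkar1a rose by 1.24, with 1 of its 3 probe sets called, and Prkacb (0.00), Gnas (-0.28) and Adcy6 (0.04) did not pass. The kinesin-like Kif7 did not pass, at 0.04. With the reference genes 19 of the 35 were lower, with the hybridization controls 3, and 3 also without each of the DFAT arrays in turn.

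**Figure D4:**
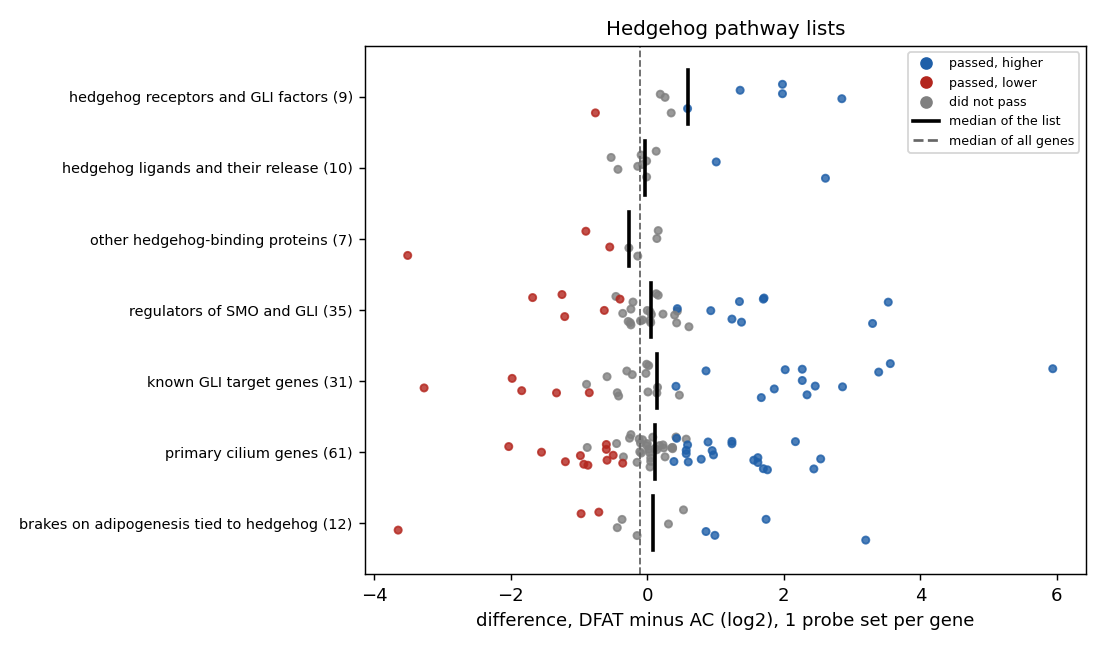
Differences between DFAT cells and AC on the log2 scale (x axis) for the genes of 7 lists (y axis, number of measured genes in parentheses), each gene by 1 probe set, in blue where higher and in red where lower at an adjusted p under 0.05 from limma. Black bars are the list medians, from -0.27 to 0.59, and the dashed line is the median of all genes, -0.10. Centred on the reference genes or the hybridization controls, the split of higher and lower genes shifts in most lists.

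Of 31 measured genes known as GLI targets in one tissue or another, 13 were higher, 5 were lower and 13 did not pass, or 58.1% called beside 46.4% of all genes (22.6% higher and 23.8% lower), with a median of 0.14. Higher were Foxc2, a forkhead factor of mesenchyme, at 3.80, 3.40 and 3.85 in AC against 9.44, 9.69 and 9.75 in DFAT cells, the cyclin gene Ccnd1 by 3.56, the IGF-binding protein gene Igfbp6 by 3.39 and Snai1, a factor of epithelial-mesenchymal transition, by 2.86. Foxc2 and Snai1 were under background level on all AC arrays, so the sizes of their differences are not exact. Lower were the growth factor gene Fgf10, by 3.27, and, from around background level, the transcription factor gene Osr1 by 1.98 and Bmp4 by 1.84. Several of these genes answer to other signals as well, and Ccnd1 rose together with all 25 measured cell cycle genes. The count of lower genes was 8 without AC replicate 1 and 15 centred on the reference genes.

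The primary cilium, on which the pathway depends, was represented by 61 measured genes, of which 20 were higher, 11 were lower and 30 did not pass, with a median of 0.11. The 50.8% called compare with 46.4% of all genes. Higher were Tmem107 of the transition zone by 2.54, and, from under background level in AC, Cep290 of the transition zone by 2.44, Bbs12, a chaperonin-like Bardet-Biedl gene, by 2.17 and the transport component Ttc26 by 1.76. Lower were the intraflagellar transport gene Ift172, from 8.26, 7.92 and 8.03 in AC to 5.69, 6.14 and 6.29 in DFAT cells, and Tmem216, Cc2d2a and Mks1 of the transition zone, by 1.55, 1.20 and 0.98. Genes of the transition zone were thus found on both sides. The count of lower genes was 18 without AC replicate 1, and centred on the reference genes 11 were higher and 27 lower.

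A list of 12 genes drawn up as brakes on fat cell differentiation tied to Hedgehog signals had 4 higher, 3 lower and 5 that did not pass, or 58.3% called beside 46.4% of all genes, with a median of 0.08. Not every member acts as a brake, since Bmp2 is known to promote commitment to the fat lineage. Higher were Snai2 by 3.20, the zinc finger factor Zfp521 by 1.74, Klf3 by 0.99 and the orphan nuclear receptor Nr2f2 by 0.86. Lower were Bmp2, from 5.68, 7.15 and 6.71 in AC to 2.69, 2.56 and 3.33 in DFAT cells, Klf2 by 0.97 and Dlk1, whose values were under background level on all arrays, by 0.71. Gata2 and Gata3, which block adipogenesis, did not pass, with differences of -0.15 and 0.53. Gata3 varied within AC, with an SD of 1.29 (n = 3).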

How the data were processed

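Expression was measured on 6 Affymetrix Mouse Genome arrays, 3 of AC and 3 of DFAT cells. The authors deposited log2 values made by RMA in the package affy (version and arrays normalized together not given in the sources used here), with background correction, normalization and probe summary already done. Scanner values, HC arrays and RLSC arrays were left out.

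Gene symbols came from the annotation of the platform: of 45037 (64 controls left out), 34945 have 1 symbol, 932 several and 9160 none. Differences, DFAT minus AC, were fitted by limma 3.58.1 under R 4.3.3 (lmFit, eBayes, two-sided, p-values adjusted by Benjamini-Hochberg across every probe set, threshold 0.05, no filter). With 3 arrays a group, exact permutation p-values cannot fall below 0.1, so none were used. The step was tested on simulated data. The brightest probe set on average stood for a gene. Named were all 9 genes, every ligand and ligand-binding gene, and for each other list up to 4 genes per direction with the largest differences past the test, not overlapping and above background level. Other genes were named after their values were seen, among them Kif7, Dlk1, Gata2 and Gata3. Of the listed pathway genes, 1 (Kif3b) had probe sets called in opposite directions. In others only some probe sets shared the call, as in Prkar1a (1 of 3), Zfp521 (1 of 2) and Adcy5 (2 of 4). List genes with no probe set of their own were left out. The members and lists were chosen with earlier results of these data known. Promoter windows are from RefSeq. Alternatives are given in the closing section. Tables and figures were made in Python 3.11.15 (pandas 2.3.3, numpy 2.4.6, matplotlib 3.10.9).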

Additional observations from a re-analysis of the deposited data

How the results depend on the processing

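Of the called probe sets of the 9 genes, none changed direction under any alternative run, and 168 of 188 recomputed values kept their call. The number of arrays limits the precision. The number of lower probe sets, 3, was 8 centred on the reference genes, 0 centred on the hybridization controls (0 also at an unadjusted p under 0.05 by limma), 1 with a floor at the background level and 1 with the methods' t-test, and 1 to 4 without each array in turn. The lower gene, Boc, gave a count of 0 with the hybridization controls (0 also unadjusted) and by the methods' t-test, Benjamini-Hochberg adjusted (1 unadjusted), and of 0 to 1 without each array in turn. By the methods' t-test at its own threshold without adjustment, 10 probe sets were higher and 3 lower, and 8 and 1 after Benjamini-Hochberg. That test is the Student's t-test of the study's general statistics. For the arrays the methods give a fold change rule and signal calls instead. Values of probe sets that had not passed changed sign as follows, and the cause was not tested. With the reference genes, Ptch1 1428853_at was -0.21, Hhip -0.11, -0.43 (adjusted p = 0.0487 from limma) and -0.40, Boc 1427517_at -0.37, Smo 1442215_at -0.30, Sufu 1450024_at -0.27 and Gli3 1450525_at -0.15. With the hybridization controls, Ptch1 1450824_at was 0.33, Hhip 1421426_at 0.36 and Sufu 0.16 and 0.07. Hhip 1421426_at was 0.01 after quantile normalization again and 0.03 centred on the array median, and Gas1 1456322_at was -0.02 with the floor, which gave no value for the 11 probe sets at background level on all arrays. Without each array in turn, Ptch1 1450824_at ranged from -0.26 to 0.04, Hhip from -0.07 to 0.19 and from -0.20 to 0.25, Boc 1427517_at from -0.11 to 0.26, Smo 1442215_at from -0.02 to 0.30 and Sufu 1450024_at from -0.08 to 0.34. Trend and robust variances and array weights kept all calls of the 12 called probe sets. With the 90th percentile as background level, 11 probe sets did not exceed it in AC and 10 in DFAT cells, with the 99th 17 and 16, and without Odf2, a setting chosen after seeing the data, 13 and 13. Of the list counts, those of lower genes moved most, with 7 of the ligand and release genes (0 as deposited) and 5 of the binding proteins (3) lower with the reference genes, and 2 of the cilium genes (11) with the hybridization controls. The mean over a gene's probe sets gave 8 lower GLI targets (5), and the floor and leaving out dim probe sets gave 1 each.

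With the replicate number as a block, 9 probe sets were higher and 3 lower, and none of the 12 calls changed. Same-numbered arrays deviated from their group means with correlations of -0.02, -0.03 and 0.01. Taken from groups of 3 arrays, these values cannot settle whether the numbers pair the arrays. The sources used here do not say that they do.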
